A study of Drosophila melanogaster with 4 samples.

Results

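The bithorax complex is the posterior Hox gene cluster of Drosophila melanogaster. It was followed here through the peaks of histone H3 trimethylated at lysine 4 (H3K4me3) that overlap 3R 12480000 to 12810000 on FlyBase release 5, a window that holds Ubx, abd-A and Abd-B. Of the 7425 peaks in the deposited list, 1593 lay on chromosome arm 3R and 3 overlapped this window. The list came from whole embryos aged 8 to 16 h, with 2 immunoprecipitated libraries (polyclonal antibody from rabbit) and 2 of input DNA, all from chromatin cross-linked in 1.8% formaldehyde for 15 min. All 4 libraries shared the strain Y cn bw sp and the same genotype. Its alleles were y[1] and oc[R3.2] on the first chromosome, then Gr22b[1], Gr22d[1] and cn[1] together with CG33964[R4.2], bw[1] and sp[1], and then LysC[1] and lab[R4.2] along with MstProx[1], GstD5[1] and Rh6[1]. The allele of lab lies in the Antennapedia complex, and no allele is listed for a bithorax gene.

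Hox genes encode homeodomain transcription factors that give each body segment its identity. Ubx acts in the posterior thorax and first abdominal segment, abd-A in the middle abdomen and Abd-B in the posterior abdomen, and the genes stand on the chromosome in the order of these domains. Polycomb group proteins keep each gene silent outside its domain, trithorax group proteins keep it active inside, and H3K4me3 marks the start of active genes. In whole embryos, fewer cells carrying the mark and less of the mark per cell cannot be told apart. The list is 1 set of peaks without a column for any library, so no value below has a replicate error and no difference was tested. Scores are those the authors deposited, on a scale that the sources used here do not give, and were compared only within the list. A place without a peak was not called at the authors' threshold, and the depth of the libraries is unknown.

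H3K4me3 was called near the start of Ubx and of abd-A, with low scores, and nowhere in Abd-B. Gene positions are those of a release 6 table, moved to release 5 by subtracting 4174278 bases on 3R. The table gives no strand. All 3 Hox genes are known to be transcribed towards the centromere, so the higher coordinate of each was taken as its start.

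Ubx (gene ID 42034) spans 12482345 to 12560148 and held 2 of the 3 peaks. The wider one, at 12558215 to 12559405, was 1191 bp wide with a score of 26.7 and lay 743 to 1933 bp inside the gene from its start. The narrower one, at 12559612 to 12559926, was 315 bp wide with a score of 16.5 and lay 222 to 536 bp inside. They were separated by 206 bp, so the mark of Ubx was a pair of neighbouring calls just downstream of the start. The rest of this gene had no peak over 75870 of its 77804 bp, which takes in its long introns.

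The gene abd-A (gene ID 42037) spans 12632936 to 12655771 and held the third peak, at 12654297 to 12655425. That peak was 1129 bp wide, scored 40.02 and lay 346 to 1474 bp inside the gene from its start. It was the highest-scoring of the window. The remaining 21361 bp of abd-A, towards its far end, were without a peak.

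Abd-B (gene ID 47763) spans 12752934 to 12797958, and its 45025 bp held 0 peaks. The nearest peak to its start lay 16479 bp away, outside the window on the telomere side, at 12814437 to 12817749. Abd-B is known to be read from several promoters, and any of them that lies inside the annotated gene was without a peak as well.

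**Figure D1:**
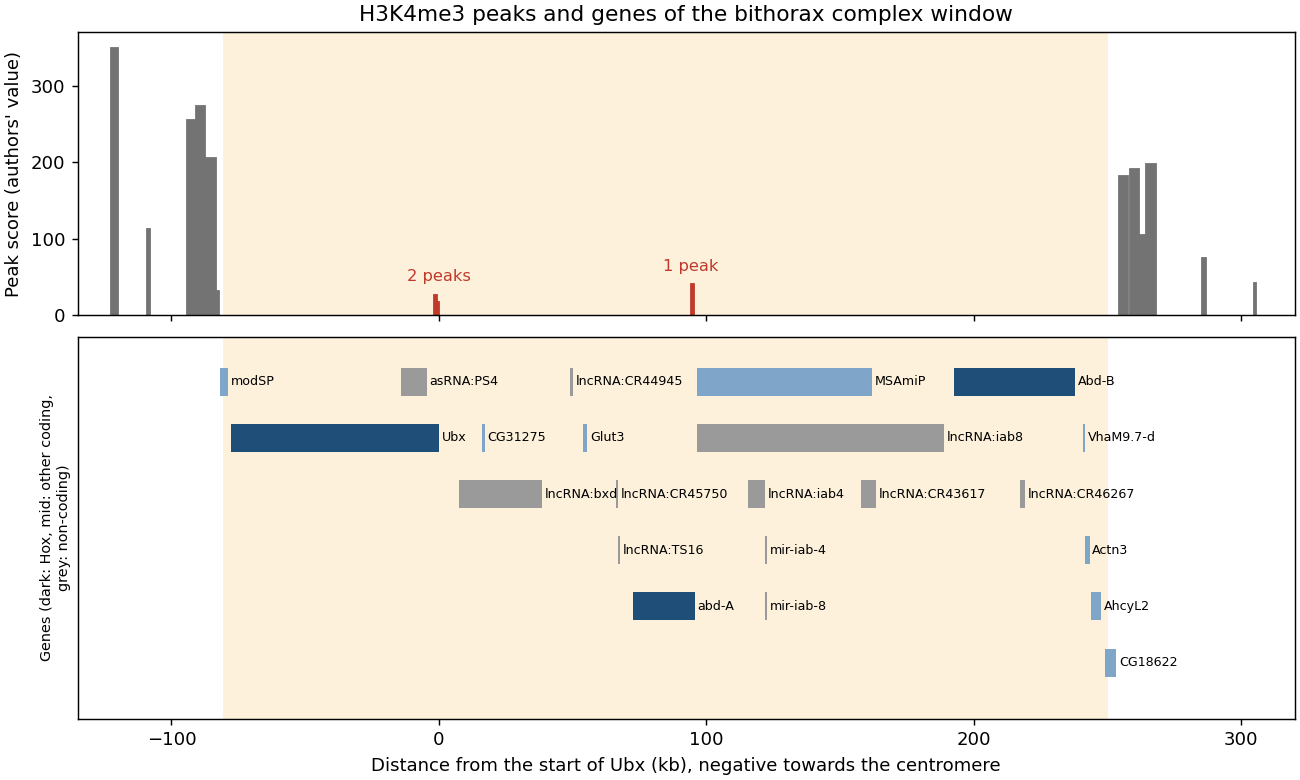
H3K4me3 peaks (upper panel, bars with their width to scale and the authors' score as height; very narrow peaks are drawn at 0.6 kb) and annotated genes (lower panel) by distance from the start of Ubx in kb. The 3 peaks of the shaded window, in red, score 16.5 to 40.02 and sit near the starts of Ubx and abd-A, while the grey peaks outside reach 349.17.

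The other genes of the window carried no peak either. In all 22 annotated genes overlapped the window, 11 of them protein-coding and 11 non-coding, and 17 lay within the span from Ubx to Abd-B. Of the 22, 2 held a peak, Ubx and abd-A. Of all protein-coding genes of 3R 51.4% were overlapped by a peak, against 2 of 11 in the window, which include genes beyond the borders of the complex. The non-coding genes included lncRNA:bxd, read from the regulatory region upstream of Ubx, and lncRNA:iab8, whose 92116 bp run through the regulatory region between abd-A and Abd-B. They also included lncRNA:iab4 and the microRNA genes mir-iab-4 and mir-iab-8, which lie on opposite strands of the same 68 bp and are known to repress Hox genes of the complex. All 11 were without a peak. The share of all non-coding genes of 3R with a peak was not computed, so this count has no background beside it. The end of lncRNA:bxd nearest to Ubx was 7921 bp from the narrower Ubx peak, and mir-iab-4 was 26572 bp from the abd-A peak. The nearest of the non-coding genes was lncRNA:iab8, whose abd-A side ended 1413 bp from that peak. MSAmiP, a coding gene annotated over the same stretch, ended 1412 bp from it.

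Among the other coding genes, Glut3, a sugar transporter gene inside the complex, and CG31275 were 38554 and 16537 bp from a peak. At the telomere-side border VhaM9.7-d, a subunit gene of the vacuolar proton pump, Actn3, an alpha-actinin gene, AhcyL2 and CG18622 were also unmarked, at 983 to 13018 bp from a peak. At the other border modSP, a serine protease gene of the Toll pathway, began 128 bp from a peak that lay just outside the window and scored 31.65. The unmarked stretch on the telomere side thus ran past Abd-B over these 4 neighbours.

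The position of the Ubx and abd-A peaks was set beside that of peaks at other 3R genes. Among 665 coding genes of 6 kb or longer, 26.2% of the 1330 gene ends had a peak 400 bp inside the gene, the highest share within 3 kb of an end. At the end itself the share was 17.7%, and 150 bp outside it was 7.74%. Further outside it rose again, to 25.04% at 1250 bp, so the highest shares outside and inside were close. The sides differed by distance, however. At 400 bp the share was 26.2% inside and 16.4% outside. At 1250 bp it was 17.1% inside, and at 3000 bp it was 3.53% inside and 21.6% outside. Peaks were thus commoner inside near the end and commoner outside further from it. With gene positions moved by 100 kb the share was 9.62 to 11.7% throughout. Genes and peaks were thus in register for the arm at large after the subtraction used for 3R. An offset error much smaller than 100 kb, or one only at the bithorax complex, was not tested. The narrower Ubx peak and the abd-A peak both cover the position 400 bp inside their gene. The wider and higher-scoring Ubx peak does not, since it lies 743 to 1933 bp inside. Over that stretch the share fell from 22.6% at 750 bp to 9.02% at 1900 bp. No strand is known for the 665 genes, and each is counted with its start and its far end.

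**Figure D2:**
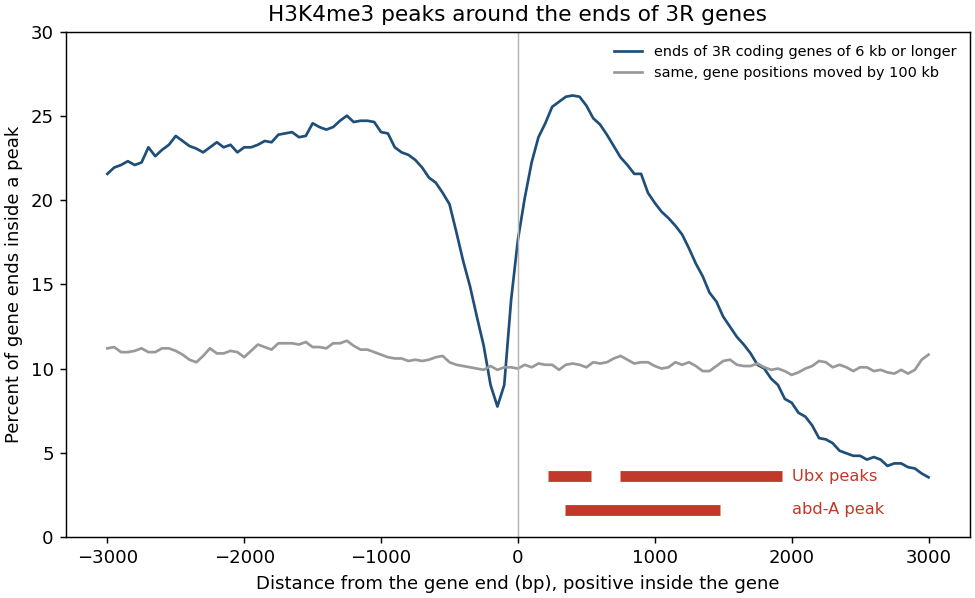
Percent of gene ends of 3R that lie inside an H3K4me3 peak, by distance from the end in bp, positive inside the gene, for 665 coding genes (blue) and for the same genes moved by 100 kb (grey). Red bars show where the peaks of Ubx and abd-A lie from the starts of these genes. The blue line is highest at 400 bp inside (26.2%) and reaches 25.04% at 1250 bp outside. The narrower Ubx peak and the abd-A peak cover the position 400 bp inside, and the wider Ubx peak does not.

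Of the 3 Hox genes 0 had an end within a peak, against 40.1% of all 3387 coding genes of 3R and 23.8% of those of 20 kb or longer. Within 500 bp of an end, 2 of 3 had a peak, Ubx and abd-A, against 55.5% of coding genes and 53.1% of long ones. Within 1000 bp the count was again 2 of 3, against 58.5% and 56.5%. A count of 2 of 3 is near these shares, so the presence of a peak is no result about the Hox genes as a group.

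The scores of the 3 peaks were low for the arm. The median score on 3R was 103.72, with quartiles of 17.3 and 247.44. Of the 1593 peaks 384 scored 16.5 or less, 514 scored 26.7 or less and 586 scored 40.02 or less. The 3 peaks thus all lay in the lower part of the score range, and the narrower Ubx peak below its first quartile. Genes were also compared by the highest score over the gene. Over 1738 other coding genes of 3R with a peak, that value had a median of 227.8. It was 26.7 or less in 9.15% of them and 40.02 or less in 12.0%.

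The 3 scores were also set beside 3R peaks of like width, whose median score was higher for the wider peaks. The peak of 1191 bp scored 26.7, and 15 of 137 other 3R peaks of a width within 10% of it scored as low or lower, with a median of 85.3 and quartiles of 50.4 and 145.4. For the abd-A peak 25 of 124 did, with a median of 79.2. These wider peaks were low for their width, but within the range of peaks like them. The narrower Ubx peak was not low for its width, since 76 of 86 matched peaks scored as low or lower and their median was 11.7. Joined across the 206 bp between them, the peaks of Ubx make 1 region of 1712 bp.

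**Figure D3:**
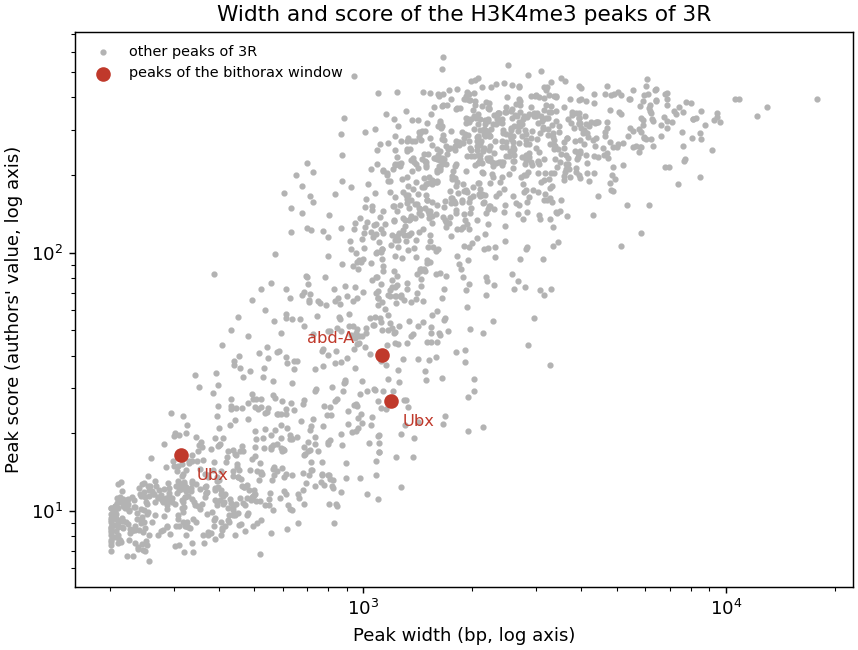
Width in bp and score of every H3K4me3 peak of 3R, both on log axes, with the 3 peaks of the bithorax window in red. The peaks of 1191 bp (Ubx) and 1129 bp (abd-A) lie low among peaks of their width, and the Ubx peak of 315 bp lies within the narrow, low-scoring group.

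Against other 330 kb windows of 3R, the bithorax window stood at the low end for the number, extent and height of peaks. Among 82 other complete windows laid out side by side, the number of peaks was 2 to 55 with a median of 18, and 1 window held 3 or fewer. Peaks covered 0.798% of the bithorax window and 1.21% to 31.1% of the others. The highest score was 40.02 here and 186.9 to 570.4 in the others. The bithorax window was thus the lowest of the 83 for covered length and for highest score. Its median score of 26.7 was matched or undercut by 3 of 82 windows, and its median width of 1129 bp by 27 of 82. The median width was thus less extreme than the median score, though all 3 peaks were narrower than the 3R median of 1291 bp. In windows sliding by 10 kb that did not overlap it, 49 of 2691, or 1.82%, held 3 peaks or fewer, 11 were covered as little and 5 of the 2690 with a peak had as low a highest score. These windows overlap each other and are not independent.

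The window was also the poorest in coding genes among those laid out side by side. It held 11 coding genes, and the other windows held 18 to 71. Of the 2691 sliding windows that did not overlap it, 4 held as few. Per coding gene the bithorax window had 0.273 peaks, and 10 of 82 windows had as few, against a median of 0.438. Few peaks and few genes thus went together in this window, and the part of gene number in the count of peaks was not tested. The 12 other windows with fewest coding genes, 18 to 25 each, held 2 to 18 peaks with a median of 9.5. Peaks covered 1.21% to 9.79% of them, and their highest scores were 186.9 to 460.4. The covered share and the highest score of the bithorax window lay below all 12.

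**Figure D4:**
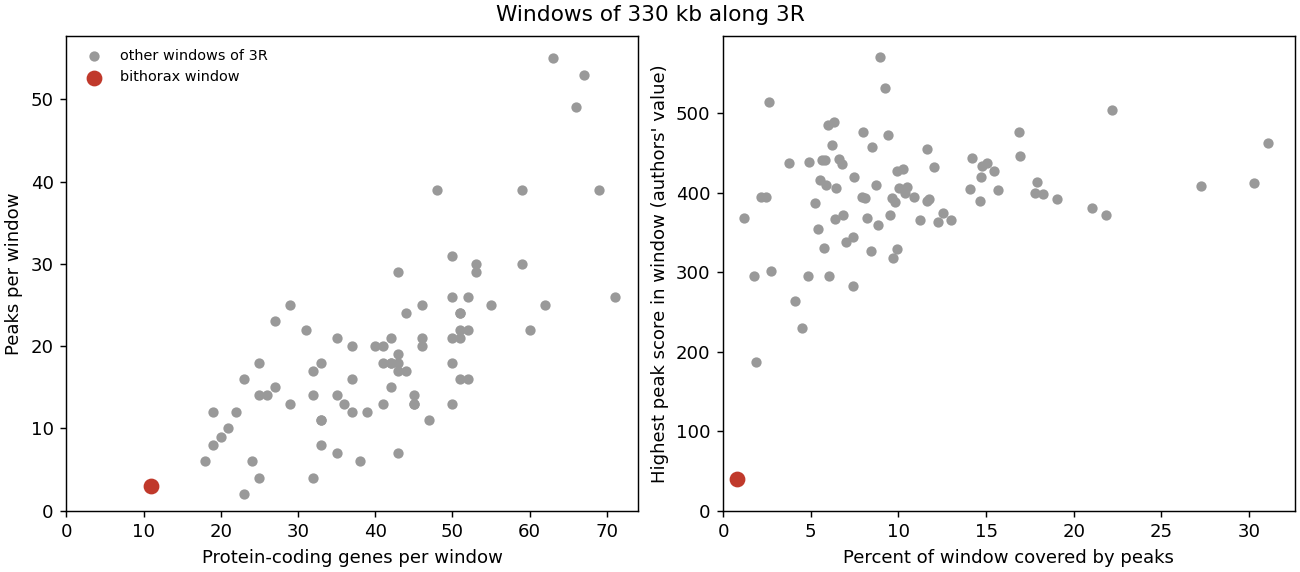
Windows of 330 kb along 3R, with the bithorax window in red and 82 others in grey. Left, peaks against protein-coding genes per window; right, highest peak score against percent of the window covered by peaks. The bithorax window has 11 coding genes and 3 peaks, and is lowest on both axes of the right panel, at 0.798% and 40.02.

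Unmarked stretches made up nearly all of the complex. From the border to the wider Ubx peak, 80174 bp at 12478041 to 12558214 had no peak, which takes in nearly all of Ubx. Between the Ubx and abd-A starts, 94370 bp at 12559927 to 12654296 had none, across lncRNA:bxd, Glut3 and most of abd-A. From the abd-A start to beyond Abd-B, 159011 bp at 12655426 to 12814436 had none, across MSAmiP, lncRNA:iab8 and Abd-B. These 3 stretches ranked 81, 70 and 29 among the 1592 gaps between peaks of 3R, whose median was 1285 bp. Long gaps were common on the arm, however, and 37 of 82 other windows touched one of 159011 bp or more. In the bithorax window 3 long stretches followed each other, with peaks of 40.02 or less between them. Without the lowest 50% of the list by score they joined into 1 stretch of 337563 bp, which reached into the windows on both sides. Of other windows 12.2% then touched one as long, a share that counts those neighbours, which touch this same stretch.

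Just outside both borders, peaks were closer together and nearly all scored higher than those of the complex. In the 50 kb before the window 6 peaks scored 31.65 to 349.17, with a median of 230.4 and a median width of 2847 bp. In the 50 kb after it 5 peaks scored 75.23 to 198.2, with a median of 181.6. For their width these flanking peaks were not high, since 4 of the 6 before and 5 of the 5 after scored below the median of 3R peaks within 10% of their width. The windows of 330 kb on either side held 25 and 21 peaks, covering 14.1% and 11.6% of their length, with 55 and 51 coding genes. Every peak in either 50 kb flank other than the one beside modSP scored above all 3 of the complex.

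The members are long genes, and long genes were often unmarked over most of their length. Peaks covered 1.94% of Ubx, 4.94% of abd-A and 0% of Abd-B. Among 236 other coding genes of 3R of 20 kb or longer, the median was 1.49% with quartiles of 0% and 4.33%, and 96 of 236, or 40.7%, held no peak, as Abd-B did. With the 3 Hox genes included, a peak overlapped 59.4% of genes of this length. The covered share of the Hox genes was thus within that of long genes. Where such a gene did hold a peak, its highest score had a median of 120.3 and quartiles of 48.4 and 233.2. Of these 140 genes 28 had a highest score of 26.7 or less and 31 had 40.02 or less, and both Ubx and abd-A lay below the first quartile.

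The other Hox cluster of the fly, the Antennapedia complex, was marked as sparsely. From lab to Antp, 337802 bp held 3 peaks that covered 0.938%, with scores of 13.16, 18.42 and 97.5. Of its 5 Hox genes, lab, pb, Dfd and Scr held 0 peaks and Antp held 1 of 559 bp with a score of 13.16, which lay 35791 bp from the nearer end of the gene. Across both complexes 3 of 8 Hox genes held a peak, with highest scores from 13.16 to 40.02, and abd-A had the highest and Ubx the next. The share with a peak was 51.4% of all coding genes of 3R and 59.4% of those of 20 kb or longer. The peaks of Ubx and abd-A began 222 and 346 bp inside their genes. Antp is known to have an internal promoter, which the gene table does not place, so how far its peak lies from a start is not given here. The 4 homeobox genes bcd, zen, zen2 and ftz of the Antennapedia complex, which act in the early embryo outside segment identity, held no peak.

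Genes of proteins that control the complex were overlapped by peaks. Of 21 Polycomb and trithorax group genes listed, 9 are on 3R and could be placed, and 9 of 9 were overlapped by a peak, with a median highest score of 366.1. The lowest was trx, the founding trithorax group gene, at 95.15, and the highest was corto at 442.4. Sce, which encodes the ubiquitin ligase of Polycomb repressive complex 1, had 413.2, and osa, a subunit gene of the Brahma remodelling complex, had 410.4. The 1599 bp of Sce lie wholly inside a wider peak of 4637 bp, so such a score need not belong to the gene alone. Every one of these 9 scored above the peaks of Ubx and abd-A. A peak overlapped 51.4% of all coding genes of 3R.

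Regulators that act upstream of or beside the Hox genes held mostly low-scoring peaks or none. Of 4 segmentation genes on 3R, hb, tll and ftz held 0 peaks and opa held 2, the higher with a score of 11.06. Of 19 regulators of embryonic cell types 10 held a peak, a share near the 51.4% of all coding genes of 3R, and their median highest score was 24.2, against 227.8 over other coding genes with a peak. The lowest was 10.53 at ems, a head and trachea homeobox gene, and 2 were above the 3R median, hth at 204.3 and btn at 390.1. The gene hth encodes a homeodomain cofactor of Hox proteins. The btn gene lies wholly inside a peak of 6412 bp that is wider than the gene. Within this list 9 of 19 genes had no peak, the state of Abd-B.

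Genes used in every cell and genes of adult tissues give the range of the mark on 3R. All 12 housekeeping genes on 3R held a peak, with a median highest score of 351.8, from 40.02 at Ald1 to 503.7 at RpL32, and 11 of 12 were above the 3R median. The 933 bp of RpL32 lie wholly inside a wider peak of 3100 bp, so here too a score need not belong to the gene alone. Of 25 adult sensory and testis genes 24 held no peak. The exception was Or85f, an odorant receptor gene that lies wholly inside a peak of 2232 bp with a score of 232.7. A peak overlapped 51.4% of all coding genes of 3R. Of the bithorax Hox genes 2 of 3 held a peak and 0 of 3 were above the 3R median. Over 1738 other coding genes with a peak, the first quartile of the highest score was 109.6, which is above that median. The lists describe these genes only, and no difference between them was tested.

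**Figure D5:**
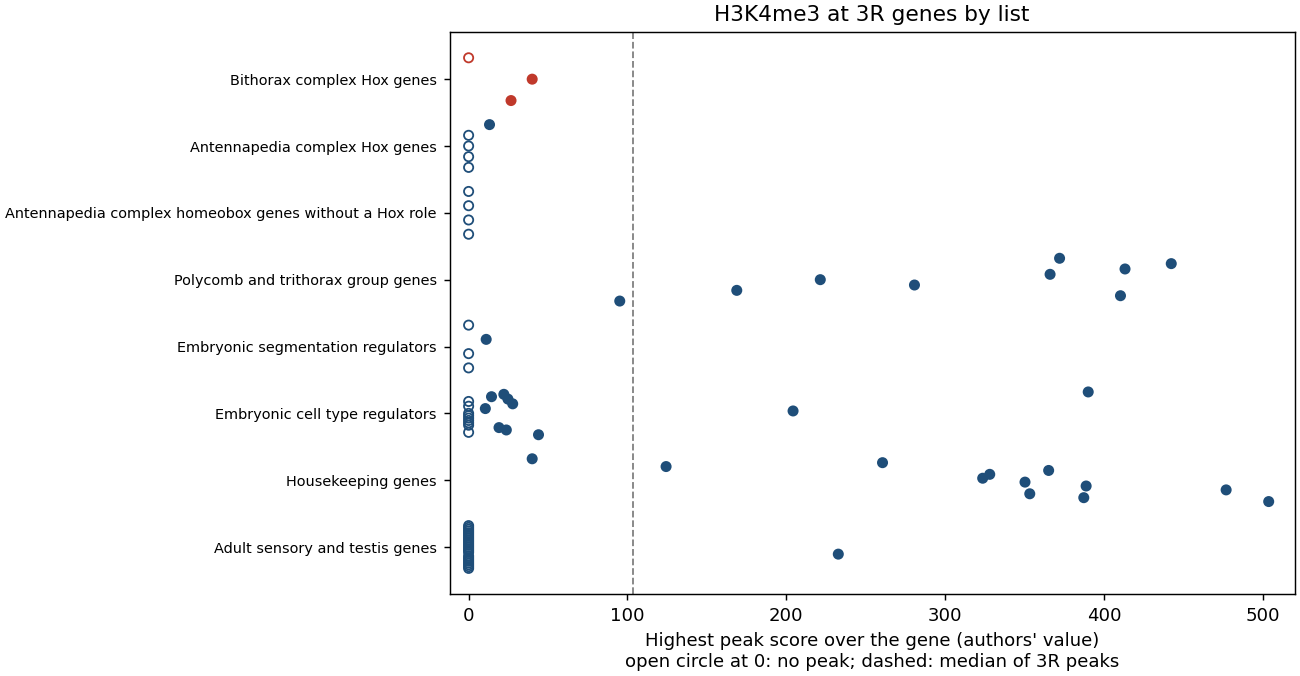
Highest score of an H3K4me3 peak overlapping each gene, by list, for genes on 3R; open circles at 0 are genes without a peak and the dashed line is the median of all 3R peaks, 103.72. Ubx and abd-A (red) stand at 26.7 and 40.02 and Abd-B at no peak, while the 9 Polycomb and trithorax group genes stand between 95.15 and 442.4.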

How the data were processed

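The deposited list holds 7425 peaks, each with an arm, start, end and score. Release 5 of FlyBase and MACS as source are named per the file headers. The submitters' processing notes name MACS2, BWA and CASAVA (versions 1.7.0.2 and 1.7.0.3) and the build BDGP5, and give no order, settings or handling of replicates. What the authors' score measures is not known from these sources. Peaks overlapping the window by at least 1 base were taken. RefSeq gene positions of release 6 (3387 coding genes of 3R) were moved by 4174278 bases. The table has no strand, so the planned measure at gene starts was taken at either end. Windows of 330 kb were laid out from the bithorax window, complete ones only. Named were the members, all genes of the window, Hox genes, and the highest and lowest of each list; Sce, osa and hth were picked after their values were seen. Members and lists were chosen with earlier results of these data known. Python 3.11.15, numpy 2.4.6, pandas 2.3.3, scipy 1.17.1 and matplotlib 3.10.9 were used, and the functions were checked on simulated arms. Promoter sequences were not used here.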

Additional observations from a re-analysis of the deposited data

How the results depend on the processing

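No paired analysis was possible because all libraries went into 1 list that names none of them, nor could the list be remade without a replicate. The planned search for promoter motifs was not run. Of 47 alternative values 34 stayed within 1.5 times the value reported, or within its exact 95% interval for the share of genes, and 13 moved. Some of the 34 could not move, so this count does not measure robustness. Examples are the peak count of the window when other windows slide, and the 0% of Abd-B when peaks are removed. Without the lowest 50% of the list by score (98.41 or more kept), the window held 0 peaks, the longest unmarked stretch was 337563 bp, the Hox genes were covered over 0% against 1.81% in all, and 36.5% of coding genes had an end in a peak against 40.1%. The first 3 of these values follow from the scores of the 3 peaks, all below that limit. With a peak within 500 or 1000 bp of an end, the Hox genes called numbered 2 in each case against 0, and the share of coding genes was 55.5% and 58.5%. Without the lowest 25% the window held 2 peaks, and merging at 500 or 1000 bp also left 2. The restriction to the span from Ubx to Abd-B and the clipping of stretches to the window were chosen after seeing the data and changed neither call. Depth and mappability are unknown, so weak marks may lie below the authors' threshold.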
